A study of Mus musculus with 18 samples.

Results

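The subject here is 10 noncoding RNAs followed along a polysome gradient in mouse mammary carcinoma cells: the long nuclear RNAs Malat1 and Neat1, and 8 host genes of small nucleolar RNAs (snoRNAs), namely Gas5, Snhg1, Snhg3, Snhg6, Snhg8, Snhg12, Zfas1 and Dancr. They were chosen by gene symbol, as nuclear long noncoding RNAs and snoRNA hosts, out of the 35976 symbols in each library. All 10 passed the filter on low counts that left 15072 genes for testing. Each was compared between heavy polysomes, light polysomes and input, and between the shDap5 and NSi arms.

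A messenger RNA that is translated carries ribosomes, and the more ribosomes it carries the further it sinks in a sucrose gradient: light polysomes hold RNAs with few ribosomes and heavy polysomes those with many. Malat1 and Neat1 are kept in the nucleus, in nuclear speckles and in paraspeckles, where ribosomes are absent. A snoRNA host gene is spliced in the nucleus, where its introns release snoRNAs that guide modification or processing of ribosomal RNA, and the spliced exons reach the cytoplasm with short open reading frames or none that is conserved. Spliced Gas5 is known to load ribosomes on a short open reading frame and to be removed by nonsense-mediated decay, the pathway that destroys transcripts whose translation stops early.

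The cells were 4T1, a line from a mammary tumour of a BALB/c mouse labelled as triple-negative breast cancer cells. The titles name the arms shDap5 and NSi, read here as an induced hairpin against Dap5 and a non-silencing control, and both arms received doxycycline at 2 µg/ml for 6 days. DAP5 is a translation initiation factor encoded by Eif4g2, and the study examined the transcriptome and the translated RNA. There were 3 libraries each of shDap5 heavy polysomes, NSi heavy polysomes, shDap5 light polysomes, NSi light polysomes, shDap5 input and NSi input, 18 in all. The labels say that gradient fractions were combined into heavy and light and do not define input, which is taken here as RNA not split by the gradient. The RNA was selected for polyA tails, so transcripts without one, the snoRNAs themselves among them, were not the target. Malat1 and the long form of Neat1 are known to end in a triple helix in place of a polyA tail, and how the selection recovered them was not tested. Nothing in the labels ties the libraries of a group to cultures grown apart, so the p-values weigh differences against library-to-library spread that may be technical. Each arm is 1 line with no uninduced cells analysed here, so what the lines differed in beforehand and what followed induction cannot be told apart.

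Total counts ran from 30385863 to 71331978 per library. Values are CPM, counts per 1000000 counts of a library, scaled by edgeR's trimmed mean of M-values (TMM), so each states a share of the polyA RNA of its own fraction and not an amount per cell. Lower RNA per cell and fewer cells that hold an RNA cannot be told apart. A count of 3, the limit that a count of 0 allows, was worth 0.0394 to 0.11 CPM depending on the library, and covers counting error only. Eif4g2, which encodes DAP5, stood at 358, 277 and 222 CPM in shDap5 heavy polysomes, against 864, 822 and 659.8 CPM in NSi heavy polysomes (log2 -1.45, SE 0.26, edgeR adjusted p = 0.00349). In light polysomes it also fell (log2 -1.60, SE 0.26, edgeR adjusted p = 0.00204), while in input it missed the test (log2 -0.59, SE 0.26, edgeR adjusted p = 0.202). In input it was called with a block of replicate number within fraction (-0.64, edgeR adjusted p = 0.00454), and without library 2 of shDap5 input it stood at -0.35 (edgeR adjusted p = 0.419). Same-numbered inputs of the arms deviated together only weakly, so that block is less certain there. All 8 listed markers of mammary epithelium were above 1 CPM in each of the 6 groups, summing to 2940 to 10900 CPM per library, whereas endothelial markers summed to 0.9 to 6.78 CPM and red cell markers to at most 0.12 CPM. Markers of fibroblasts and adipocytes summed to 15.1 to 43.4 CPM and those of leukocytes to 20.6 to 116 CPM, the leukocyte list with 2 of 8 genes above 1 CPM, Cd68 and Csf1r, while Ptprc, carried by all leukocytes, averaged at most 0.274 CPM in a group. The part of such cells in the results was not tested. Library 2 of shDap5 input was the highest library of all for Neat1 and Malat1, and values that it moved by over 1.5 times or across the threshold are given with and without it.

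RefSeq holds a window around the annotated start of 8 of the 10 genes (GRCm38.p6), and Neat1 and Snhg6 are named only. Many snoRNA host genes are known to begin, like ribosomal protein mRNAs, with a C followed by a run of pyrimidines, the 5′ terminal oligopyrimidine tract, which ties their translation to growth signals. The windows below run 5′ to 3′ from 25 bases before the annotated start, 50 bases each. They are shown because the snoRNA hosts moved together from light to heavy polysomes, with Malat1 beside them as a gene that hosts none. Capitals mark the longest run of at least 5 letters that starts with C and holds C and T alone, on the sense strand, beginning within 10 bases of the start on either side.

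Gas5, second annotated start (chr1:161035141-161035190, plus strand): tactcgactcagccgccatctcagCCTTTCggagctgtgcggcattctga
Snhg3 (chr4:132353662-132353711, minus strand): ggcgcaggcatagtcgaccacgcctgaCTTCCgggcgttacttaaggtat
Snhg8 (chr3:123508312-123508361, minus strand): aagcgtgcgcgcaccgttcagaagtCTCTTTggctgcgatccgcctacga
Snhg12 (chr4:132308653-132308702, plus strand): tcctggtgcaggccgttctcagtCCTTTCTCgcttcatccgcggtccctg
Snhg1 (chr19:8723462-8723511, plus strand): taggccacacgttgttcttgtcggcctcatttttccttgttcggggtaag
Zfas1 (chr2:167062909-167062958, plus strand): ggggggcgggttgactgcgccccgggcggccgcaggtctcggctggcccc
Dancr (chr5:74093035-74093084, plus strand): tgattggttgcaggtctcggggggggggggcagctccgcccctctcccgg
Malat1 (chr19:5802648-5802697, minus strand): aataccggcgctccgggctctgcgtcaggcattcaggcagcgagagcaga

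Such a run was found at Gas5 (second start, 6 letters), Snhg3 (5 letters), Snhg8 (6 letters) and Snhg12 (8 letters), and not at the annotated starts of Snhg1, Zfas1, Dancr or Malat1 or at the first start of Gas5. Of 32851 mouse windows in the same table, 25.5% held a run of at least 5 letters and 5.61% one of at least 8, so a match by itself is common. In the GENCODE annotation of GRCm38, Malat1 lies at chr19:5795690-5802672 and Neat1 at chr19:5824708-5845478, both on the minus strand. The hosts lie at chr1:161034422-161038539 (Gas5, plus), chr19:8723475-8726443 (Snhg1, plus), chr4:132348014-132353686 (Snhg3, minus), chr1:9941959-9944118 (Snhg6, minus), chr3:123507552-123508404 (Snhg8, minus), chr4:132308623-132311024 (Snhg12, plus), chr2:167062934-167065862 (Zfas1, plus) and chr5:74093060-74095406 (Dancr, plus). The counts were made on mm9, so these positions name the genes and were not used to count. The body of Gas5 held 10 snoRNA genes on its own strand, Snhg1 held 8, Snhg12 held 5, Zfas1 held 3, Snhg3 held 2, and Snhg6, Snhg8 and Dancr held 1 each, while Malat1 and Neat1 held none. Exons of Snhg3 overlap Rcc1 on the same strand, and Zfas1 and Snhg6 overlap Znfx1 and Mcmdc2 on the opposite strand; how the authors counted reads that 2 genes share is not given in the sources used here, so the counts of these 3 are less certain.

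The 10 RNAs followed 3 courses along the gradient, with Dancr between the first and the second. Malat1 and Neat1 were highest in input, lower in light polysomes and lowest in heavy polysomes. Gas5, Snhg1, Snhg3, Snhg6, Snhg12 and Zfas1 were nearer their input share in light polysomes, some above and some below it, and lower than in either in heavy polysomes. Dancr had the order of Malat1 and Neat1, without overlap of fractions in either arm. Its light share was a smaller step down, at 55.6% of the mean input share in shDap5 and 63.4% in NSi. Snhg8 was concentrated in light polysomes, where every library lay above every input, and in heavy polysomes was back near its input share. Light libraries of Zfas1 also lay above all inputs of their own arm, with smaller log2 changes (0.90 in shDap5 and 0.71 in NSi).

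**Figure D1:**
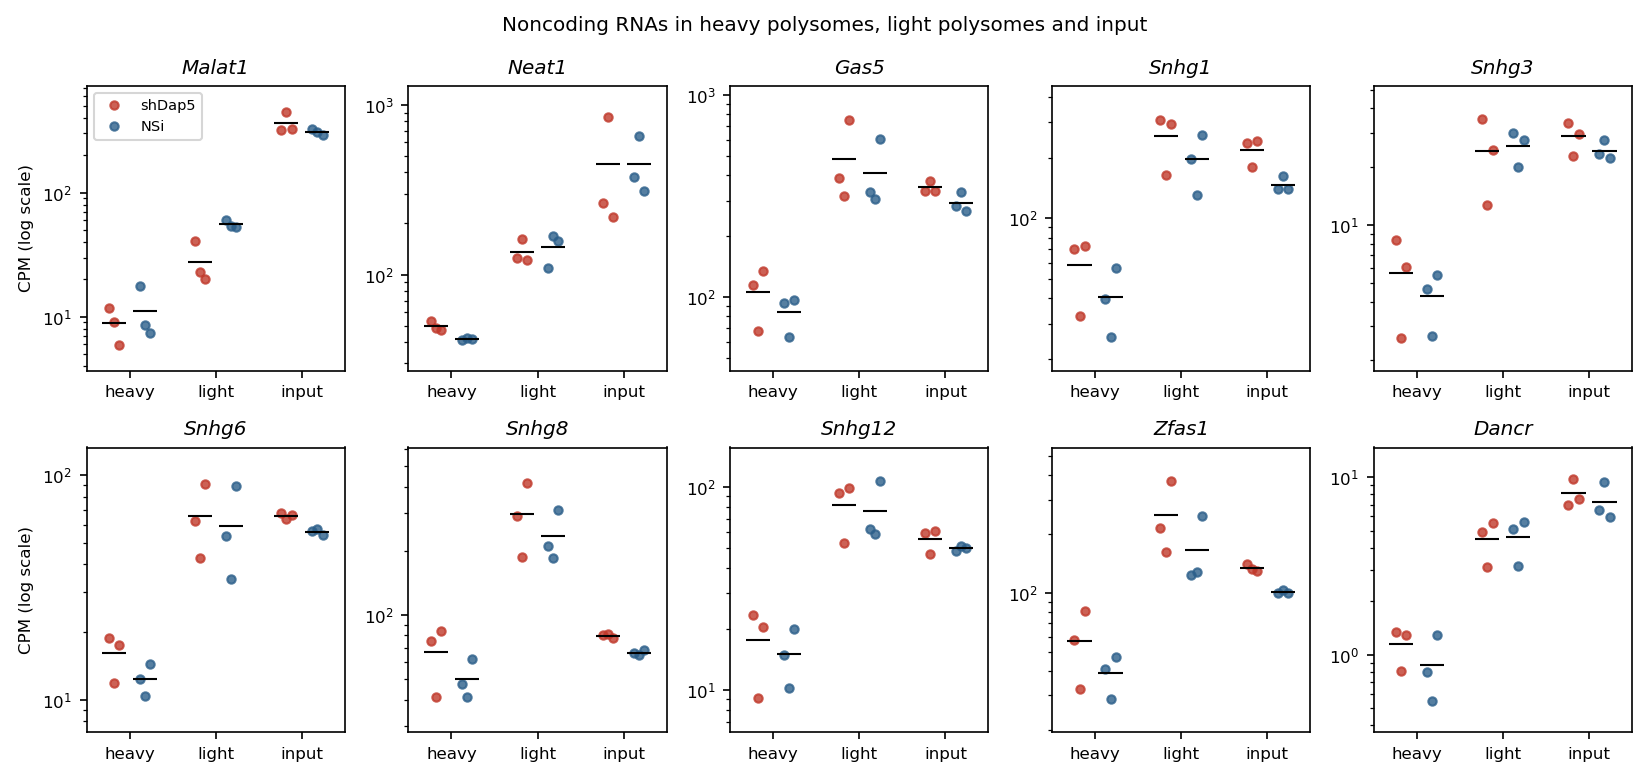
CPM (log scale, with a separate range in each panel) of the 10 noncoding RNAs in heavy polysomes, light polysomes and input, each dot 1 library (3 per group), the black bar their mean, red for shDap5 and blue for NSi. Malat1 runs from 5.92 to 17.8 CPM in heavy polysomes to 289.8 to 448 CPM in input, whereas Snhg8 peaks in light polysomes in both arms.

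Malat1, which gathers in nuclear speckles beside sites of splicing, was the member most depleted from polysomes. In shDap5 cells it stood at 11.8, 9.15 and 5.92 CPM in heavy polysomes and 40.4, 22.9 and 20.0 CPM in light polysomes, against 321, 448 and 325 CPM in input. NSi cells had 17.8, 8.53 and 7.39 CPM in heavy polysomes and 59.7, 54.3 and 53.0 CPM in light polysomes, against 323, 307 and 289.8 CPM in input. In each arm all heavy libraries lay below all light ones, and all light below all inputs. Relative to input, Malat1 in heavy polysomes fell by 5.36 on the log2 scale in shDap5 (SE 0.36, edgeR adjusted p = 2.36e-08) and by 4.77 in NSi (SE 0.35, edgeR adjusted p = 6.45e-08), leaving 2.45% and 3.66% of the mean input share. Counted from the lowest, these changes ranked 13 in shDap5 and 21 in NSi among the 15072 genes tested. The counts behind them were not small, since each heavy library held 233 to 623 Malat1 reads. Without library 2 of shDap5 input, the shDap5 value was -5.18, still called. In light polysomes Malat1 also fell relative to input, in shDap5 (log2 -3.71, SE 0.34, edgeR adjusted p = 6.63e-07) and in NSi (log2 -2.46, SE 0.32, edgeR adjusted p = 1.13e-05).

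Neat1, the RNA scaffold of paraspeckles, had the same order of fractions with a smaller spread between them. Its shares in shDap5 were 53.3, 48.4 and 47.1 CPM in heavy polysomes and 126, 162 and 122 CPM in light polysomes, against 266, 852 and 219 CPM in input. In NSi they were 41.0, 42.1 and 41.8 CPM in heavy polysomes and 109, 169 and 158 CPM in light polysomes, against 377, 654 and 311 CPM in input. The heavy libraries were nearly level, at 47.1 to 53.3 CPM in shDap5 and 41.0 to 42.1 CPM in NSi, while inputs spread over 219 to 852 CPM in shDap5 and 311 to 654 CPM in NSi, with number 2 the highest in both arms. Neat1 fell in heavy polysomes relative to input in shDap5 (log2 -3.17, SE 0.41, edgeR adjusted p = 7.58e-06) and in NSi (log2 -3.43, SE 0.41, edgeR adjusted p = 3.76e-06), and in light polysomes in shDap5 (log2 -1.71, SE 0.38, edgeR adjusted p = 0.00126) and NSi (log2 -1.62, SE 0.38, edgeR adjusted p = 0.0019). Without library 2 of shDap5 input, the shDap5 changes were -2.29 in heavy and -0.83 in light polysomes, and both were still called.

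In heavy polysomes relative to input, 9 of the 10 RNAs fell in shDap5, against 21.2% of the 15072 tested genes called lower, and 9 of 10 in NSi, against 20.2%. Here and below, fell, rose and called mean an edgeR quasi-likelihood p below 0.05 after Benjamini-Hochberg adjustment over all genes tested. The median log2 change of the 10 RNAs was -1.97 in shDap5 and -2.01 in NSi, beside 0.05 and 0.03 over all tested genes. The exception in both arms was Snhg8 (log2 -0.25, 95% interval -0.83 to 0.33, in shDap5 and -0.40, -0.99 to 0.18, in NSi). In NSi that call depended on the setting: Snhg8 fell with no scaling factor (-0.85, edgeR adjusted p = 0.013) and in a fit of NSi heavy and input libraries alone (-0.49, edgeR adjusted p = 0.0267), while over the alternatives without leaving a library out its adjusted p ran from 0.013 to 0.287.

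**Figure D2:**
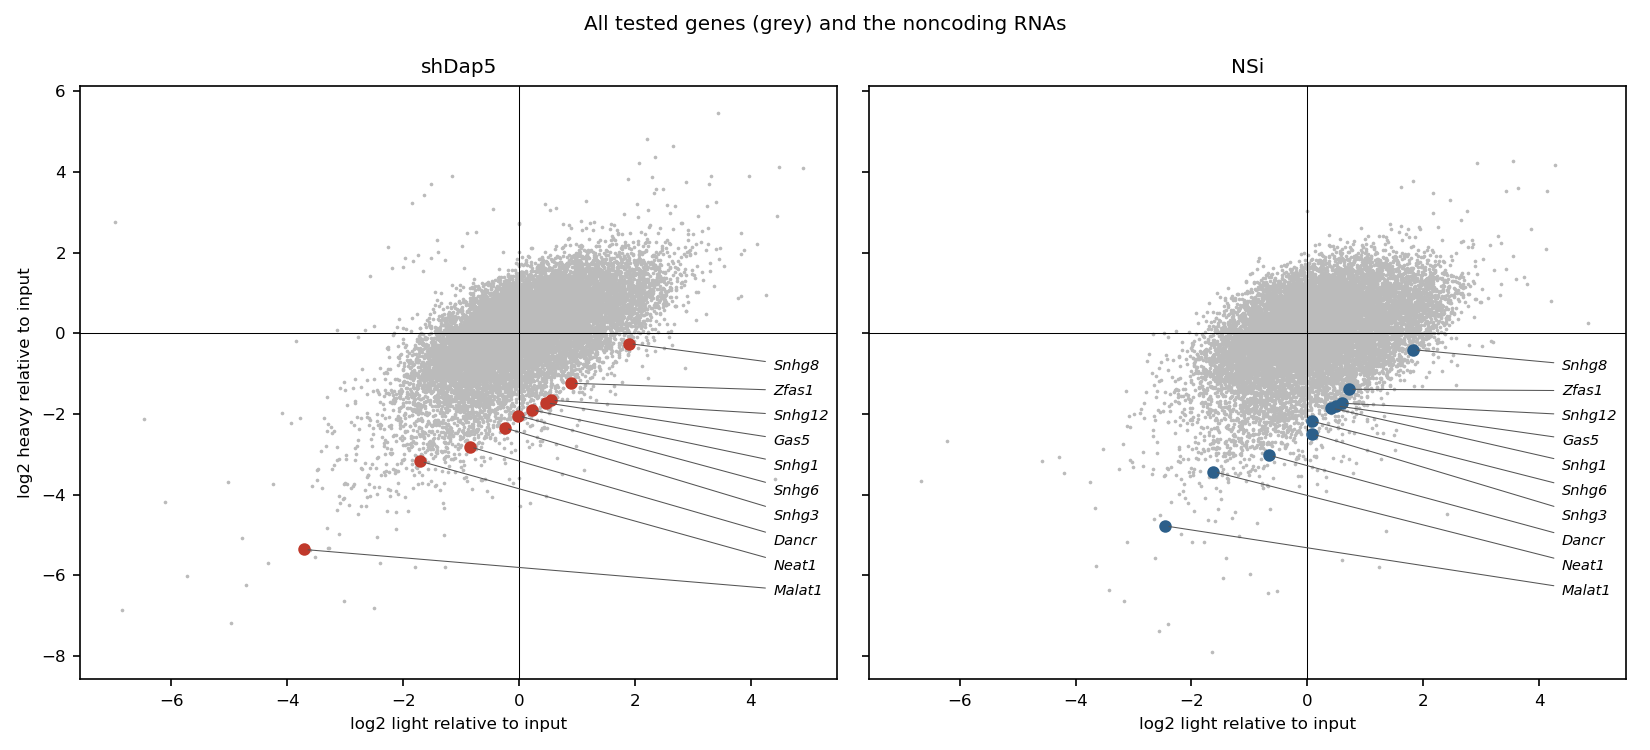
Log2 change in heavy polysomes relative to input (vertical) against light polysomes relative to input (horizontal) for the 15072 tested genes (grey) and the 10 noncoding RNAs (coloured), shDap5 left and NSi right. The 2 changes share the input libraries. The RNAs lie on the lower edge of the cloud, from Malat1 at the bottom (-5.36 in shDap5 and -4.77 in NSi) to Snhg8 near 0.

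Gas5, a growth arrest transcript and the host with the most snoRNA genes of the 8, overlapped its input values in light polysomes. It stood at 115, 68.0 and 134 CPM in shDap5 heavy and 386, 314 and 752 CPM in shDap5 light polysomes, against 335, 377 and 334 CPM in shDap5 input. In NSi the values were 93.4, 63.3 and 96.6 CPM in heavy and 331, 304 and 602 CPM in light polysomes, against 282, 331 and 266 CPM in input. Heavy libraries lay below every library of the other fractions, while light and input libraries overlapped and light library 3 was the highest in both arms. In heavy polysomes Gas5 fell relative to input (log2 -1.72, SE 0.32, edgeR adjusted p = 0.000298, in shDap5 and -1.79, SE 0.32, edgeR adjusted p = 0.000214, in NSi), and in light polysomes the change of 0.47 and 0.50 was not called (edgeR adjusted p = 0.215 and 0.195).

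Snhg1, which hosts a cluster of box C/D snoRNAs, was likewise lowest in heavy polysomes. Its shDap5 values were 70.6, 32.6 and 72.7 CPM in heavy and 308, 164 and 295 CPM in light polysomes, against 235, 179 and 241 CPM in input. Its NSi values were 39.9, 25.7 and 56.8 CPM in heavy and 197, 131 and 258 CPM in light polysomes, against 139, 163 and 139 CPM in input. Library 2 was the lowest of its group in both polysome fractions of both arms, and in each arm all heavy libraries lay below all others. Heavy relative to input, Snhg1 fell by 1.90 on the log2 scale in shDap5 (SE 0.33, edgeR adjusted p = 0.000173) and by 1.85 in NSi (SE 0.33, edgeR adjusted p = 0.00022).

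Snhg12 and Zfas1 had the same low point in heavy polysomes. Snhg12 had 23.4, 9.10 and 20.4 CPM in shDap5 heavy and 93.5, 52.8 and 99.0 CPM in shDap5 light polysomes, against 59.5, 46.7 and 61.1 CPM in shDap5 input. In NSi Snhg12 had 14.9, 10.3 and 19.9 CPM in heavy and 62.2, 59.0 and 107 CPM in light polysomes, against 48.3, 51.4 and 50.4 CPM in input. Snhg12 heavy libraries lay below all others of their arm, and its light libraries lay above all inputs in NSi and overlapped them in shDap5. Zfas1, whose introns hold copies of box C/D snoRNAs of the Snord12 family, had 57.6, 32.5 and 81.4 CPM in shDap5 heavy and 216, 163 and 376 CPM in shDap5 light polysomes, against 141, 134 and 129.5 CPM in shDap5 input. In NSi Zfas1 had 41.0, 28.7 and 47.2 CPM in heavy and 124, 129 and 249 CPM in light polysomes, against 101, 104 and 101 CPM in input. Zfas1 light libraries lay above all input libraries of their arm and heavy libraries below them in both arms. Zfas1 fell in heavy polysomes relative to input (log2 -1.24, SE 0.33, edgeR adjusted p = 0.00515, in shDap5 and -1.39, SE 0.33, edgeR adjusted p = 0.00249, in NSi), as did Snhg12 (log2 -1.66, SE 0.33, edgeR adjusted p = 0.000462, in shDap5 and -1.73, SE 0.33, edgeR adjusted p = 0.000341, in NSi).

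Snhg3 and Snhg6 were lowest in heavy polysomes too. Snhg3, host of the box H/ACA snoRNAs of the Snora73 family, ranged over 2.60 to 8.31 CPM in shDap5 heavy and 12.6 to 35.3 CPM in shDap5 light polysomes, against 22.7 to 33.6 CPM in shDap5 input. Snhg3 ranged over 2.67 to 5.48 CPM in NSi heavy and 19.9 to 29.7 CPM in NSi light polysomes, against 22.1 to 27.4 CPM in NSi input. Its heavy libraries lay below all others of their arm, while light and input overlapped. Snhg6, host of Snord87, ranged over 11.9 to 18.9 CPM in shDap5 heavy and 42.6 to 91.5 CPM in shDap5 light polysomes, against 63.9 to 67.5 CPM in shDap5 input. Snhg6 ranged over 10.3 to 14.4 CPM in NSi heavy and 34.5 to 89.8 CPM in NSi light polysomes, against 54.1 to 57.8 CPM in NSi input. The heavy libraries of Snhg6 also lay below all others, with light and input overlapping. Their log2 changes in heavy polysomes relative to input were -2.34 for Snhg3 and -2.04 for Snhg6 in shDap5, and -2.49 and -2.18 in NSi (edgeR adjusted p at most 8.51e-05).

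Dancr, host of the box H/ACA snoRNA Snora26 and named for its part in holding back differentiation, had the fewest reads of the 10. It stood at 1.35, 0.806 and 1.29 CPM in shDap5 heavy and 4.92, 3.10 and 5.50 CPM in shDap5 light polysomes, against 6.99, 9.77 and 7.55 CPM in shDap5 input. In NSi it stood at 0.799, 0.549 and 1.29 CPM in heavy and 5.10, 3.15 and 5.58 CPM in light polysomes, against 6.54, 9.32 and 5.97 CPM in input. Heavy, light and input libraries did not overlap in either arm, with heavy lowest, and a single heavy library held 15 to 81 Dancr reads. Its fall in heavy polysomes relative to input was larger than that of the other snoRNA hosts (log2 -2.81, SE 0.34, edgeR adjusted p = 4.2e-06, in shDap5 and -3.02, SE 0.35, edgeR adjusted p = 2.53e-06, in NSi), although the difference between hosts was not tested. In light polysomes it fell in shDap5 (log2 -0.85, SE 0.31, edgeR adjusted p = 0.0288), a call lost without library 2 of shDap5 light (-0.64, edgeR adjusted p = 0.121) or of shDap5 input (-0.70, edgeR adjusted p = 0.092). In NSi the change was -0.66 (edgeR adjusted p = 0.0843), called in the fit of the compared groups alone (-0.65, edgeR adjusted p = 0.0478) and with total counts alone (-0.90, edgeR adjusted p = 0.0217).

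Snhg8, host of Snora24, was the member most enriched in light polysomes relative to input. It stood at 75.6, 41.0 and 84.4 CPM in shDap5 heavy and 289, 186 and 418 CPM in shDap5 light polysomes, against 80.0, 81.2 and 78.2 CPM in shDap5 input. In NSi it stood at 47.5, 41.0 and 61.9 CPM in heavy and 210.5, 185 and 311 CPM in light polysomes, against 65.9, 64.7 and 68.5 CPM in input. Every light library of either arm lay above every input, while heavy libraries overlapped their inputs in shDap5 and lay below them in NSi. In light polysomes Snhg8 rose relative to input by 1.90 on the log2 scale in shDap5 (SE 0.28, edgeR adjusted p = 4.06e-05) and 1.83 in NSi (SE 0.28, edgeR adjusted p = 5.66e-05), reaching 373% and 355% of the mean input share. In that comparison 95.3% of tested genes in shDap5 and 95% in NSi had a lower change than Snhg8.

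Light polysomes relative to input gave changes in both directions. In shDap5, Snhg8 and Zfas1 rose, 2 of 10 against 26.4% of tested genes called higher, and Malat1, Neat1 and Dancr fell, 3 of 10 against 26.8% called lower. In NSi, Snhg8 alone rose, 1 of 10 against 26.7%, and Malat1 and Neat1 fell, 2 of 10 against 24.7%. These shares are near those of all genes, and the median log2 change of the 10 RNAs was 0.11 in shDap5 and 0.25 in NSi, beside -0.00369 and 0.02 over all tested genes. The rise of Zfas1 was called in shDap5 (log2 0.90, SE 0.33, edgeR adjusted p = 0.0283) and not in NSi (0.71, edgeR adjusted p = 0.0766). In NSi it was called in the fit of the compared groups alone (0.72, edgeR adjusted p = 0.0248), and the arms were not shown to differ in it (interaction 0.19, SE 0.46). In shDap5 the Zfas1 call was lost without library 3 of shDap5 light (0.49, edgeR adjusted p = 0.237) and without any 1 of the shDap5 inputs (0.87 to 0.93, edgeR adjusted p = 0.0588 to 0.0763). It was also lost with no filter (0.85, edgeR adjusted p = 0.115) or total counts alone (0.70, edgeR adjusted p = 0.0654). Values for the other hosts were between -0.25 (Snhg3) and 0.55 (Snhg12) in shDap5 and between 0.08 (Snhg6) and 0.60 (Snhg12) in NSi, leaving Dancr aside, and none was called. Without library 2 of shDap5 input, Snhg1 stood at 0.094 and Snhg3 at -0.40 in shDap5, neither called.

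From light to heavy polysomes the snoRNA hosts lost their share to almost the same degree. Heavy relative to light, all 10 RNAs fell in shDap5, against 20.2% of tested genes called lower, and all 10 in NSi, against 25.6%. The 8 hosts lay between -2.21 (Snhg12) and -1.96 (Dancr) on the log2 scale in shDap5 and between -2.58 (Snhg3) and -2.10 (Zfas1) in NSi, with SEs of 0.29 to 0.39. Both ranges were narrower than the 95% interval of a single host, which for Gas5 was -2.88 to -1.51 in shDap5 and -2.98 to -1.60 in NSi. Over all tested genes the 5th to 95th percentiles were -1.64 to 1.24 in shDap5 and -1.94 to 1.39 in NSi, and the hosts lay below the 5th percentile in both. Snhg8 moved with the rest here (-2.15, SE 0.29, edgeR adjusted p = 2.16e-05, in shDap5 and -2.23, SE 0.29, edgeR adjusted p = 7.87e-06, in NSi), so its separate course lay in its higher light share relative to input.

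Libraries of the same number behaved as pairs between heavy and light polysomes, and each pair showed the fall. Across the 8 hosts the same-number differences of heavy minus light ran from -2.54 to -1.73 in shDap5 and from -2.90 to -1.59 in NSi. For Gas5 they were -1.75, -2.21 and -2.48 in shDap5 and -1.83, -2.27 and -2.64 in NSi, and for Snhg1 -2.12, -2.33 and -2.02 in shDap5 and -2.31, -2.35 and -2.19 in NSi. Malat1 and Neat1 fell here too, with log2 changes of -1.64 in shDap5 and -2.31 in NSi for Malat1 and of -1.46 in shDap5 and -1.80 in NSi for Neat1 (edgeR adjusted p at most 0.00507). Each of these calls held in every alternative run, including each library left out in turn.

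**Figure D3:**
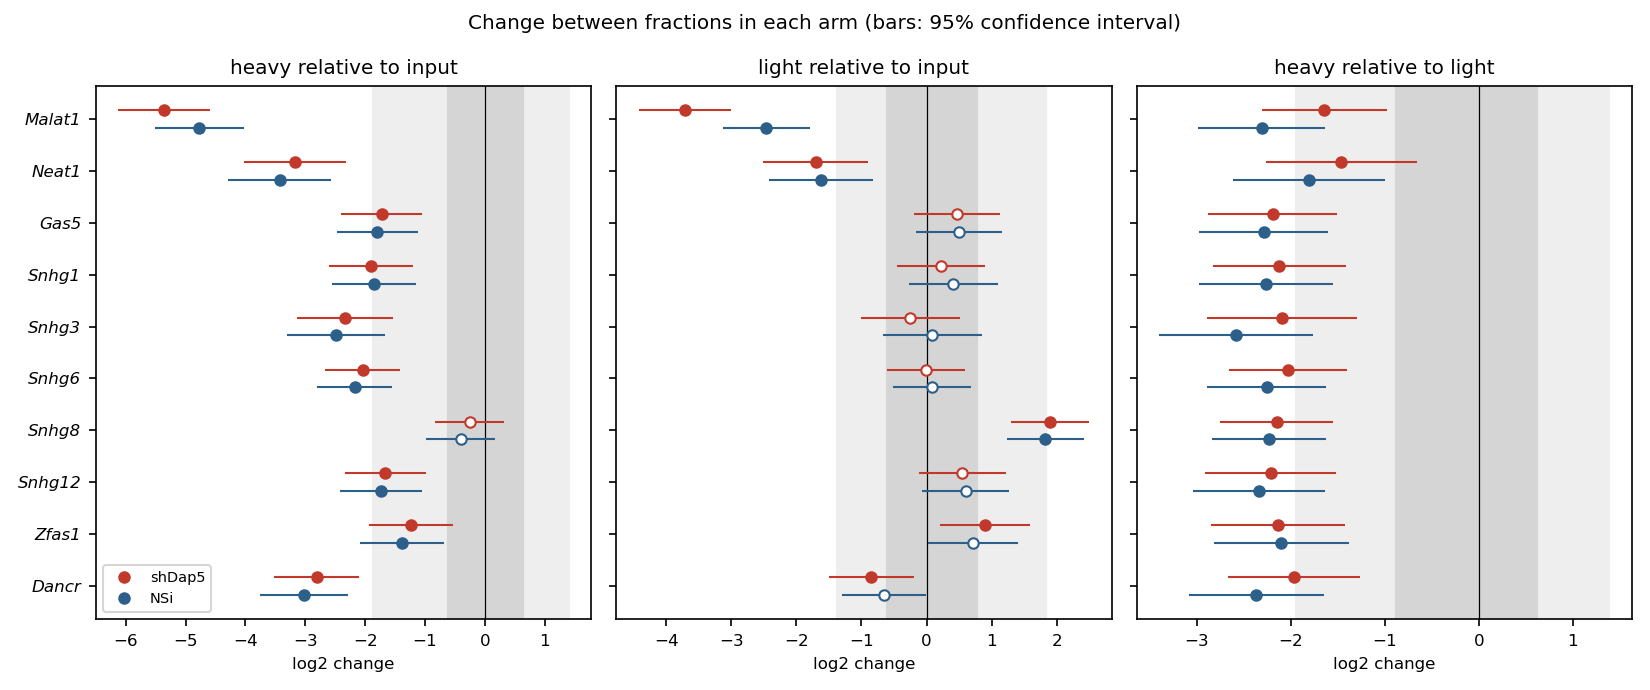
Log2 change of the 10 noncoding RNAs between fractions, with 95% confidence intervals, shDap5 in red above NSi in blue; filled symbols were called by edgeR and open ones were not. Grey bands give the 25th to 75th and the 5th to 95th percentiles of all tested genes in NSi (for heavy relative to light, -1.94 to 1.39). The 8 snoRNA hosts form a near-vertical column in the right panel and spread out in the left and middle panels.

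Over the 18 libraries the values of most hosts moved in parallel, those of Snhg8 less closely. Pearson correlations of log2 CPM with Gas5 were 0.974 for Snhg12, 0.972 for Snhg6, 0.972 for Zfas1, 0.965 for Snhg1, 0.922 for Snhg3, 0.892 for Dancr and 0.777 for Snhg8. The lowest correlation between hosts was 0.449, for Snhg8 and Dancr. Malat1 and Neat1 correlated at 0.923. With the hosts, Malat1 correlated at 0.0108 (Snhg8) to 0.864 (Dancr), with 0.602 for Gas5. Neat1 did so at 0.153 (Snhg8) to 0.901 (Dancr), so the nuclear RNAs and the hosts were not cleanly separated. These are descriptions over 18 libraries of 6 groups that share fractions and scaling, not independent samples. Among 10299 other genes that averaged 5 CPM or more, the 5 most like Malat1 in this measure were Gm7072 (0.983), Lrif1 (0.98), Zfp160 (0.98), Paxbp1 (0.977) and Zmym6 (0.976). Paxbp1, with the highest CPM of these in shDap5 input, averaged 13.7 CPM in shDap5 heavy polysomes and 27.4 CPM in shDap5 light polysomes, against 108 CPM in shDap5 input. The 5 most like Gas5 were Rpl17 (0.983), Pvt1 (0.979), Rps12 (0.977), 5530601H04Rik (0.974) and Bcl2l2 (0.97). Rpl17 and Rps12 encode ribosomal proteins, host snoRNAs in their introns and have many processed pseudogenes, so their counts, 4.14 to 16.4 CPM for Rpl17 group means, are uncertain.

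Related RNAs were read from lists of the same kind. Of 15 other noncoding snoRNA hosts listed, 12 were among the symbols and 10 were tested. In heavy polysomes relative to input, 9 of these hosts fell in shDap5, against 21.2% of all genes, and 10 in NSi, against 20.2%. Their median log2 changes were -1.84 and -1.95. Snhg4 (-3.00 in shDap5 and -2.69 in NSi), Snhg7 (-2.58 and -2.44) and Snhg20 (-2.52 and -2.43) were among them, while Snhg14 was near the limit of 3 counts in heavy polysomes and gets no fold; setting it at that limit left the NSi median at -1.95. Heavy relative to light, all 10 fell in both arms, against 20.2% of all genes in shDap5 and 25.6% in NSi. Their medians were -2.02 in shDap5 and -2.12 in NSi, close to the -2.13 and -2.28 of the 8 hosts described above. In light polysomes relative to input, 3 of the 10 rose and 3 fell in shDap5, against 26.4% and 26.8% of all genes. In NSi 1 rose and 1 fell, against 26.7% and 24.7%. Snhg10, named after its values were seen, resembled Snhg8 in rising there (log2 1.73 in shDap5, edgeR adjusted p = 0.000471, and 1.38 in NSi, edgeR adjusted p = 0.00254).

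Other nuclear long noncoding RNAs were also low in heavy polysomes. Of 25 listed, 10 were tested. In heavy polysomes relative to input 9 of these fell in each arm, against 21.2% of all genes in shDap5 and 20.2% in NSi. The medians were -1.94 in shDap5 and -1.92 in NSi (-1.92 in both with Mir155hg, which was under 3 counts in heavy polysomes, set at that limit). Firre, which anchors chromosomal loci in the nucleus, averaged 4.3 ± 0.396 CPM in shDap5 heavy polysomes, against 71.3 ± 21.8 CPM in shDap5 input, and 4.14 ± 1.63 CPM in NSi heavy polysomes, against 55.2 ± 14.7 CPM in NSi input (SD, n = 3 each). Its log2 change was -4.05 in shDap5 and -3.73 in NSi (edgeR adjusted p = 3.71e-08 and 7.56e-08). In light polysomes relative to input, 5 of the 10 fell in shDap5, against 26.8% of all genes, and 4 in NSi, against 24.7%. Pvt1, the neighbour of Myc, averaged 84.6 ± 28.3 CPM in shDap5 light polysomes, against 74.3 ± 6.48 CPM in shDap5 input (SD, n = 3 each). Ftx, a regulator of X inactivation, changed by -2.61 in shDap5 and -2.78 in NSi, and Pvt1 by -1.66 and -1.80 in heavy polysomes relative to input (edgeR adjusted p at most 5.07e-05). Lncpint, named after its values were seen, was the gene of this list that was not called (-0.13 in shDap5 and -0.18 in NSi, edgeR adjusted p = 0.688 and 0.579). Of 4 tested long noncoding RNAs listed as cytoplasmic, Mir22hg and 1700020I14Rik fell in both arms. H19 was called in neither arm and gets no fold, since it averaged 0.0511 CPM in shDap5 input and 0.115 CPM in NSi input, near the limit of 3 counts. Bc1 rose in shDap5 (log2 1.20, edgeR adjusted p = 0.0266) and was at 0.71 in NSi (edgeR adjusted p = 0.178). Bc1 varied widely between libraries. It averaged 55.9 ± 7.08 CPM in shDap5 heavy polysomes against 24.3 ± 12.3 CPM in shDap5 input (SD, n = 3 each). In NSi the values were 85.4 ± 39.8 CPM in heavy polysomes against 52.3 ± 11.9 CPM in input.

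Genes that host snoRNAs and also encode proteins moved in both directions. Of 43 tested, 6 rose and 14 fell in heavy polysomes relative to input in shDap5, and 11 rose and 11 fell in NSi, with medians of -0.04 and 0.27. Over all tested genes, 26.7% rose and 21.2% fell in that comparison in shDap5, and 26.4% rose and 20.2% fell in NSi. Heavy relative to light, 8 of the 43 rose and 25 fell in shDap5, and 11 rose and 21 fell in NSi, with medians of -0.80 and -0.62. More of them fell in this step than the 20.2% and 25.6% of all genes. Those with the smallest p-values in NSi heavy polysomes relative to input were Prpf39, a splicing factor (-3.11 in shDap5 and -3.04 in NSi), Taf1d, a subunit of an RNA polymerase I factor (-2.42 and -2.07), Rpl10 (-2.86 and -2.52), a ribosomal protein gene whose processed pseudogenes make its counts uncertain, and Eif4a2 (-1.03 and -1.26), an RNA helicase of translation initiation. Rpl10 and 6 other ribosomal protein hosts that fell in NSi (Rpl3, Rpl12, Rpl17, Rpl23a, Rpl30 and Rps12) averaged 3.28 to 48.5 CPM in NSi input. Rpl7a, Rpl13a and Rps3, which rose in NSi, averaged 64.2, 466 and 777 CPM there. Counts that low are uncertain for ribosomal protein genes, and the split of the 43 without them was not tested. Of 15 heavily translated mRNAs, 8 rose and 2 fell in heavy polysomes relative to input in shDap5, and 10 rose and 2 fell in NSi, with medians of 0.59 and 0.90, beside the 26.7% and 26.4% of all genes that rose. Tuba1b and Pkm rose in both arms (1.34 and 1.40 in shDap5, 2.04 and 1.77 in NSi), while Myh9 fell (-1.50 and -1.72). Gapdh and Actg1 averaged only 18.9 and 14.3 CPM in NSi input, against 1840 CPM for Actb, so their counts are uncertain too. Of 21 mRNAs known as targets of nonsense-mediated decay, 5 rose and 5 fell in shDap5 and 6 rose and 4 fell in NSi. Of 18 factors of that pathway, 4 rose and 6 fell in shDap5 and 8 rose and 4 fell in NSi, in the same comparison and beside the same shares of all genes. Of 14 tested mRNAs for proteins of paraspeckles, the bodies built on Neat1, 2 rose and 5 fell in shDap5 and 3 rose and 1 fell in NSi in heavy polysomes relative to input, whereas in light polysomes relative to input 12 fell and none rose in each arm, where 26.8% of all genes fell in shDap5 and 24.7% in NSi.

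**Figure D4:**
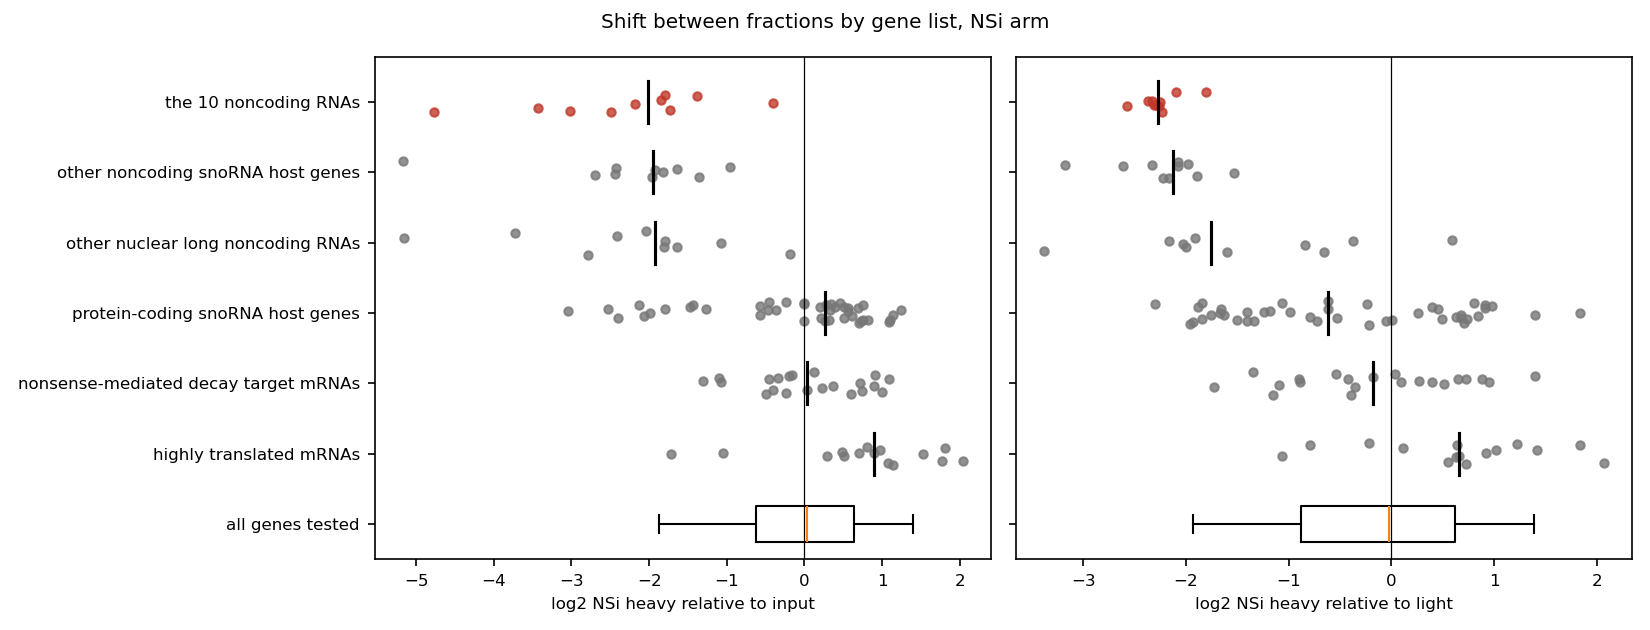
Log2 change in NSi heavy polysomes relative to input (left) and to light polysomes (right) for the 10 noncoding RNAs (red), other lists (grey, each dot 1 gene, black bar the median) and all tested genes (box with quartiles and median, whiskers from the 5th to the 95th percentile). The 10 RNAs, median -2.01 left and -2.28 right, lie with the other noncoding snoRNA hosts and below the protein-coding hosts, whose medians are 0.27 and -0.62.

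The arms were compared within each fraction, to ask whether these RNAs differed in shDap5 cells. With edgeR, none of the 10 was called in heavy polysomes (against 3.95% of tested genes), light polysomes (3.47%) or input (6.95%). At an unadjusted p below 0.05 the number was 0 in heavy polysomes, 1 in light polysomes (Malat1) and 0 in input. Of the 15072 tested genes, 2585, 2428 and 2945 passed that limit in heavy, light and input. DESeq2 called 0, 1 (Malat1) and 0 of the 10, beside 1029, 987 and 1535 of 26970 genes. The titles carry replicate numbers. Libraries of the same number deviated together in both arms in heavy (correlations 0.507 to 0.826) and light polysomes (0.555 to 0.793), so fits with the number as a block are given beside these. In input the link was weak (0.133 to 0.375), and shDap5 library 1 matched NSi library 3 best. Blocked calls in input therefore rest on a pairing that is not clear.

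Malat1 in light polysomes was the member with the largest difference between arms. It stood at 40.4, 22.9 and 20.0 CPM in shDap5 light polysomes, against 59.7, 54.3 and 53.0 CPM in NSi light polysomes, or 27.8 ± 11.04 and 55.7 ± 3.56 CPM (SD, n = 3 each). All 3 shDap5 libraries lay below all 3 NSi libraries, which held for Malat1 alone of the 10 members, where 9.64% of tested genes did so, and library 1 was the highest of each arm. The edgeR log2 difference was -1.002 (SE 0.31, 95% interval -1.65 to -0.36, adjusted p = 0.0868), and same-number differences were -0.56, -1.25 and -1.40. It was called with a replicate block (-1.06, edgeR adjusted p = 0.00866, 1 of 10 members against 6.72% of genes), with DESeq2 (-0.98, adjusted p = 0.0404) and without library 1 of shDap5 light (-1.37, edgeR adjusted p = 0.0289). Over the alternatives that keep all libraries its adjusted p ran from 0.000781 to 0.207. In heavy polysomes the Malat1 difference was -0.34 (-0.99 to 0.32, edgeR adjusted p = 0.642) and in input 0.25 (-0.38 to 0.88, edgeR adjusted p = 0.728), neither called. Without library 2 of shDap5 input, the input difference of Malat1 was 0.078. Relative to the input, the light difference was -1.25 (SE 0.43, unadjusted p = 0.00921, edgeR adjusted p = 1).

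Neat1 was not called between arms in any fraction. In heavy polysomes all 3 shDap5 libraries lay above all 3 NSi libraries, which held for no other member, where 7.6% of tested genes did so, at 49.6 ± 3.26 CPM in shDap5 and 41.6 ± 0.573 CPM in NSi heavy polysomes (SD, n = 3 each; log2 0.25, edgeR adjusted p = 0.793). In input it stood at 266, 852 and 219 CPM in shDap5, against 377, 654 and 311 CPM in NSi (log2 -0.01, 95% interval -0.79 to 0.78). Number 2 was the highest input of both arms, and the same-number differences in input were -0.51, 0.38 and -0.50. Leaving out library 2 of shDap5 alone, which keeps the high NSi library of that number, gave -0.88 (edgeR adjusted p = 0.0384), and leaving out library 2 of NSi alone gave 0.37 (edgeR adjusted p = 0.765).

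Most snoRNA hosts had slightly higher values in shDap5 without passing the test. Their log2 differences ran from 0.23 (Snhg12) to 0.55 (Zfas1) in heavy polysomes, from -0.09 (Snhg3) to 0.59 (Zfas1) in light polysomes and from 0.16 (Dancr) to 0.57 (Snhg1) in input. All 8 were above 0 in heavy polysomes and in input and 6 of 8 in light polysomes, beside 7774, 8481 and 7270 of the 15072 tested genes. Values of most hosts moved in parallel over the libraries, so the hosts do not count as 8 separate observations. The medians of the 10 members were 0.37, 0.13 and 0.25 in heavy, light and input, beside 0.01, -0.01 and 0.05 over all tested genes. Without library 2 of shDap5 input, the input differences were 0.00064 for Dancr, 0.39 for Snhg3 and 0.27 for Snhg12, none called. Gas5, Snhg1, Snhg6, Snhg8 and Zfas1 had all 3 shDap5 inputs above all 3 NSi inputs, 5 of 10 members where 20.2% of tested genes did so. Zfas1 in input stood at 141, 134 and 129.5 CPM in shDap5, against 101, 104 and 101 CPM in NSi, and Snhg1 at 235, 179 and 241 CPM, against 139, 163 and 139 CPM. Their edgeR differences in input were 0.40 for Zfas1 (-0.28 to 1.09, adjusted p = 0.56) and 0.57 for Snhg1 (-0.11 to 1.25, adjusted p = 0.365). A block of replicate number within fraction, an alternative chosen after seeing the data, called 4 hosts higher in heavy polysomes (Snhg1, Snhg6, Snhg8 and Zfas1, at 0.36 to 0.51) against 10.3% of genes called higher. The same block called Snhg1 (0.56) and Zfas1 (0.40) higher in input, 2 of 10 against 11.6%, and Zfas1 higher (0.58) and Malat1 lower (-1.07) in light polysomes, 2 of 10 against 16.1% called in either direction. Zfas1 was thus the host called in all 3 fractions with this block (edgeR adjusted p = 0.011 in heavy, 0.00412 in light and 0.0226 in input), although numbers paired only weakly in input. Without a block, a fit of the 6 input libraries alone also called Zfas1 (0.36, edgeR adjusted p = 0.0195) and Snhg1 (0.53, edgeR adjusted p = 0.0281) higher in input. That fit called 2 of 10 members higher, beside 1106 of 14600 genes. Csf1r, a receptor of macrophages, rose in shDap5 in each fraction (edgeR adjusted p at most 0.00211). It averaged 14.2 CPM in shDap5 and 4.68 CPM in NSi heavy polysomes, 5.86 CPM in shDap5 and 1.85 CPM in NSi light polysomes, and 10.5 CPM in shDap5 and 2.26 CPM in NSi input. Cd68 was not called in any fraction, the summed leukocyte markers ran from 20.6 to 116 CPM in shDap5 and from 28.3 to 86.2 CPM in NSi libraries, and their part in these differences was not tested.

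**Figure D5:**
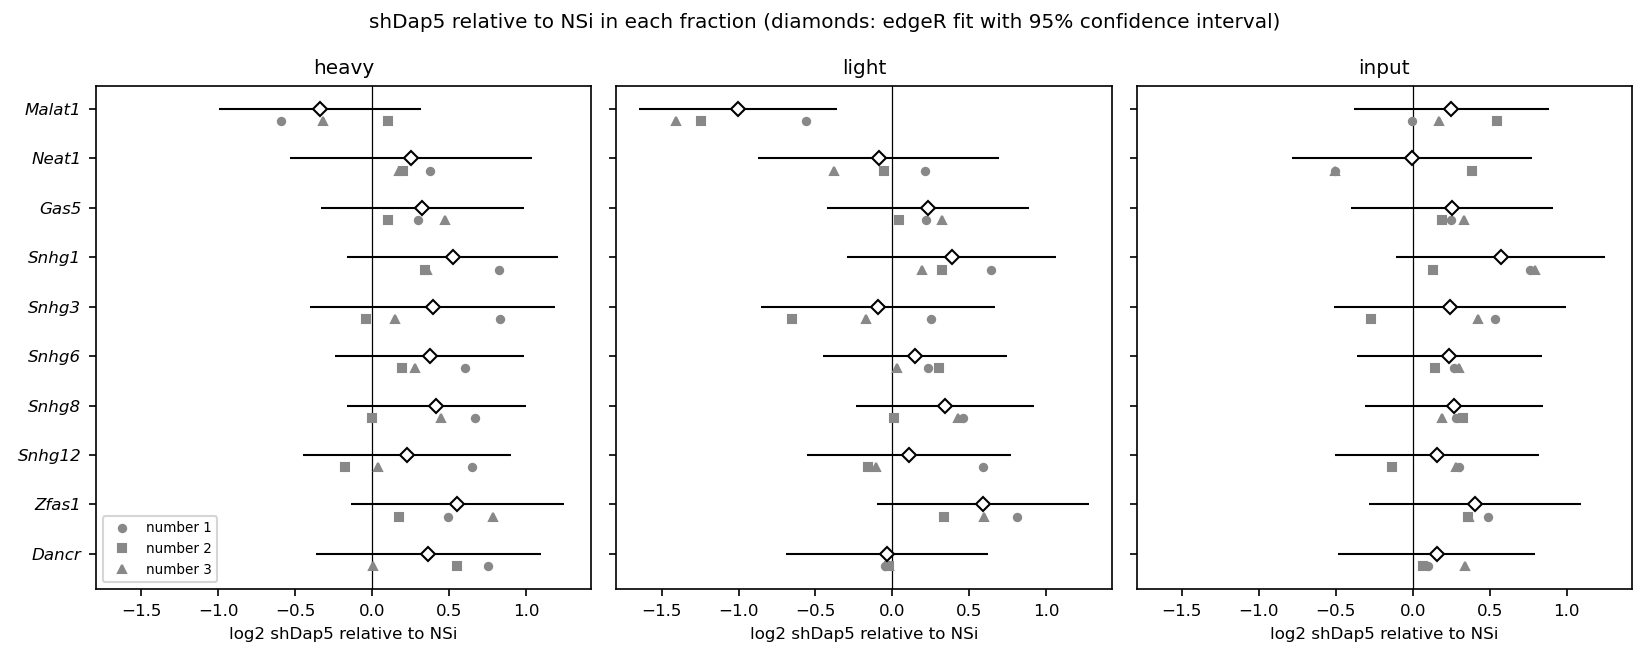
Log2 difference of shDap5 relative to NSi for the 10 noncoding RNAs in heavy polysomes, light polysomes and input: diamonds give the edgeR value with its 95% confidence interval, grey symbols the differences between libraries of the same number. No member was called in any fraction. The interval of Malat1 in light polysomes, -1.65 to -0.36, lies below 0, and that of each snoRNA host crosses 0.

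Whether the shift along the gradient differed between arms was tested as an interaction. EdgeR called none of the 10 members and 0% of the 15072 genes in any of its forms (heavy or light polysomes relative to input, or heavy relative to light). At an unadjusted p below 0.05 there were 295, 320 and 181 genes in these 3 tests, among the members Malat1 alone and in light relative to input alone, and DESeq2 called 0 genes in each. Without library 2 of shDap5 input, edgeR called 9 genes for heavy and 8 genes for light polysomes relative to input, none of them a member. For the 8 snoRNA hosts the interactions were between -0.05 (Snhg1) and 0.21 (Dancr) for heavy relative to input, between -0.33 (Snhg3) and 0.19 (Zfas1) for light relative to input, and between -0.04 (Zfas1) and 0.49 (Snhg3) for heavy relative to light. Their SEs were 0.39 to 0.52, and for Gas5 the 95% intervals were -0.86 to 1.003, -0.95 to 0.91 and -0.83 to 1.03, which set the size of difference that these libraries could not exclude.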

How the data were processed

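The authors deposited a table of read counts per gene symbol for each library, with 35976 symbols and no total or unnamed entries; 27 symbols look like dates, none of them a gene named here. Reads were processed with Bowtie against mm9, per the submitters' processing notes, while its version, the annotation and the rules of counting (strand, shared reads) are not given in the sources used. No columns of values were left unused (0). Replicates of a group differed by more than sampling noise in every pair (chi-square per degree of freedom at least 8.82), so no libraries were merged. This spread does not show whether they came from cultures grown apart.

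Genes were kept by edgeR's filterByExpr (minimum count 10, total 15), which left 15072. Counts were scaled by TMM and fitted with edgeR 4.0.16 (limma 3.58.1, R 4.3.3) as 1 mean per group over all 18 libraries, leaving 12 residual degrees of freedom, with robust quasi-likelihood tests and Benjamini-Hochberg adjustment over all genes. The common biological coefficient of variation was 0.227. SEs were obtained as |log2 change| / sqrt(F), and 95% intervals use the t quantile. Total counts of 30385863 to 71331978 per library set the precision, together with 3 libraries per group. Before use, the fit was run on simulated negative binomial counts with known changes placed in NSi heavy libraries. They used 1 mean per gene over all libraries and dispersions estimated from these data. Wide shifts between fractions and shared replicate numbers were not simulated, so the run does not test the fit under them.

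By rule the text names all 10 members, Eif4g2, and up to 4 genes of each related list with the smallest p in NSi heavy polysomes relative to input. The rule adds the 5 genes whose log2 CPM correlated most with that of Malat1 and of Gas5. Other genes of the related and marker lists, such as Rpl3 and Rps3, were named after their values were seen. Beside Snhg10 and Lncpint alone is this also stated in the text. The members and lists were chosen with earlier results of these data known, so their counts are descriptions. Alternatives were DESeq2 1.42.0, other scalings and filters, fits of the compared groups alone, each library left out in turn, and replicate blocks, of which the blocks within fraction and among polysomes alone were chosen after seeing the data. Replicate numbers come from the titles: over 10308 genes, deviations of same-numbered libraries correlated at 0.511 to 0.763 between heavy and light polysomes of an arm, at 0.507 to 0.826 between arms in heavy, 0.555 to 0.793 in light and 0.133 to 0.375 in input, and at -0.322 to 0.458 between polysomes and input. Numbers were taken as pairs where every correlation exceeded 0.1, which excludes polysomes against input. Between arms in input this limit was passed narrowly (0.133), and shDap5 library 1 matched NSi library 3 best.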

Additional observations from a re-analysis of the deposited data

How the results depend on the processing

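The fall of all 10 RNAs in heavy relative to light polysomes, and of the 9 in heavy polysomes relative to input, kept direction and call in every alternative run in both arms, each library left out in turn included. Of calls in light polysomes relative to input, shDap5 had 3 to 5 with 1 library left out (5 with all, 3 without library 2 of shDap5 input), 4 with no filter or total counts alone and 6, with Snhg12 added, under a replicate block (0.51, edgeR adjusted p = 0.0498) or a block within arm (0.50, edgeR adjusted p = 0.042), and NSi had 3, against 6 in a fit of the compared groups alone, 6 with a replicate block and 5 with a block within arm, though numbers do not pair those libraries. Between arms no member was called in the fit described, while DESeq2 called 1 in light polysomes, the replicate block 1 in light, the block within fraction 4 in heavy, 2 in light and 2 in input, a fit of the compared groups alone 2 in input (Snhg1 and Zfas1), and leaving 1 library out gave 0 to 1 in light and 0 to 1 in input.

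Small uncalled values changed sign. In light polysomes relative to input, Snhg6 in NSi was at -0.015 with a replicate block, -0.018 with a block within arm and -0.17 with total counts alone, Snhg6 in shDap5 at 0.033 with a filter of 1 CPM in 3 libraries, 0.0011 with the compared groups alone and 0.046 with upper quartile scaling, and Snhg3 in NSi at -0.15 with total counts alone. Neat1 between arms in input was at 0.0070 with no filter. With 1 library left out, values between arms ran over -0.23 to 0.18 for Dancr, -0.24 to 0.61 for Gas5, -0.26 to 0.047 for Neat1, -0.052 to 0.43 for Snhg12, -0.47 to 0.22 for Snhg3 and -0.17 to 0.58 for Snhg6 in light polysomes, -0.58 to 0.17 for Malat1 and -0.021 to 0.54 for Snhg12 in heavy polysomes and -0.88 to 0.37 for Neat1 in input. Relative to input they ran over -0.0017 to 0.70 for Gas5, -0.63 to 0.055 for Snhg3 and -0.34 to 0.21 for Snhg6 in shDap5 light polysomes, -0.033 to 0.24 for Snhg3 and -0.35 to 0.35 for Snhg6 in NSi light polysomes and -0.45 to 0.0072 for Snhg8 in shDap5 heavy polysomes. The cause was not tested.

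Scaling by total counts alone moved the median of all genes in heavy polysomes relative to input to -0.33 in shDap5 and -0.41 in NSi, and the genes called to 2255 higher and 5273 lower in shDap5 (4021 and 3188 with TMM) and 1981 higher and 5619 lower in NSi (3980 and 3049). Upper quartile scaling gave 3121 higher and 4137 lower in shDap5 and 2837 higher and 4260 lower in NSi. For heavy relative to light, total counts gave 2475 higher and 3934 lower in shDap5 (3666 and 3040 with TMM) and 2937 higher and 4865 lower in NSi (4065 and 3865), and upper quartile scaling 2389 and 4211 in shDap5 and 2934 and 5029 in NSi. For light relative to input, total counts gave 3145 and 4913 in shDap5 (3979 and 4037) and 3027 and 4949 in NSi (4025 and 3721). All genes called between arms numbered 595 in heavy polysomes (56 with the compared groups alone, 1029 with DESeq2, 1122 with a replicate block and 2765 with the block within fraction), 523 in light polysomes (219, 987, 1013 and 2431) and 1047 in input (2218 with the compared groups alone, 1798 with a replicate block and 3330 within fraction), so calls between arms depend on how replicates are treated. Leaving out 1 library gave 682 without NSi 3 in heavy polysomes and 252 (NSi 2) to 551 (shDap5 2) without any other. In light polysomes it gave 218 (NSi 2) to 393 (shDap5 1). In input it gave 1712 without shDap5 2 and 486 to 559 without any other.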
